A study of Mus musculus with 2 samples.

Results

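Guidance ligands and receptors are the secreted and membrane proteins that attract or repel growing axons, vessels and migrating cells. They were taken here as every gene whose symbol belongs to the semaphorin, neuropilin, plexin, Slit, Robo, netrin, Unc5, ephrin or Eph receptor families, 68 of the 32285 genes in the deposited feature lists. The 68 comprised 20 semaphorins, 2 neuropilins, 9 plexins, 3 Slits, 4 Robos, 4 netrins, 4 Unc5 receptors, 8 ephrins and 14 Eph receptors. Their unique molecular identifiers (UMIs, each standing for 1 captured transcript) were counted in single cells of dorsolateral and flank skin from mouse embryos at E14.5, the stage at which the first hair follicles form. One library came from wildtype embryos and 1 from Wntless mutant littermates of a cross of K14Cre mice, whose Cre is active in epidermal keratinocytes, to Wntless fl/fl mice; the labels give no further alleles for either group. Each library pooled 2 to 3 embryos. With 1 library per genotype no difference had a replicate check and no p-value was computed, and the 95% intervals given cover nothing but counting error.

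Semaphorins signal through plexins, and most secreted semaphorins need a neuropilin, a co-receptor that also binds VEGF. Slits act on Robo receptors, netrins on Dcc, neogenin and the Unc5 receptors, and ephrins on Eph receptors of a neighbouring cell, with signals in both directions. In skin these proteins are known for patterning sensory nerves and vessels and for keeping neighbouring cell populations apart. Wntless (Wls) is the cargo receptor needed for Wnt secretion, and epidermal Wnt ligands are required for the first hair placodes and the dermal condensates beneath them.

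The wildtype library held 9065 barcodes and 112593376 UMIs, and the mutant library 10449 barcodes and 159841679 UMIs, with medians of 11341 and 14602 UMIs per barcode. Of the barcode sequences, 19 occurred in both libraries, 4 of them in both dermal lists. Wls was at 121 CPM (UMIs per 1000000 UMIs of the class) in the wildtype and 7.64 CPM in the mutant epidermis, against 91.8 and 77.0 CPM in the dermis. Dermal cells were those of the authors' own barcode lists, 5300 wildtype and 5028 mutant cells. Other classes were clusters named from marker genes, with the guidance genes left out of the clustering. Some clusters lay almost wholly in 1 library. Each dermal group below holds the dermal list cells of its clusters without condensate cells. The upper-dermis-like group, from cluster 3 with Dkk1 and Crabp1 among its leading genes, had 1388 wildtype and 13 mutant cells. Condensate cells, defined by a UMI of at least 3 of 8 condensate markers, numbered 342 and 5, and the placode-like cluster 275 and 0. Those 3 groups are therefore described within the wildtype library.

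The guidance genes were spread over the classes of the wildtype library. By the class with the highest CPM, 13 of the 68 genes peaked in the condensate, 9 in endothelial-like cells, 7 in lower-dermis-like cells and 6 each in placode-like and Schwann-like cells. The share of all genes peaking in each class is not given beside these counts. They include genes of few UMIs, such as Robo3 at 0.528 CPM in the condensate. Some peaks are near ties, such as Ephb6 at 4.22 CPM in the condensate and 4.04 CPM in placode-like cells. Robo4, an endothelial Robo, was the most restricted measured gene, at 75.1 CPM in endothelial-like cells and 0.533 CPM in the next class. Plxnb3 and Sema3g were highest in Schwann-like cells, at 14.9 and 38.7 CPM, and Slit1 in muscle-like cells, at 2.06 CPM. In the erythroid-like cells, which make few of these transcripts and so gauge free RNA, Nrp1 was the highest, at 4.61 CPM in the wildtype and 10.4 CPM in the mutant library, and Sema5a followed at 3.46 and 6.91 CPM. UMIs of 3' libraries count transcript ends and do not scale with transcript length, so levels are compared between genes on the CPM scale.

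**Figure D1:**
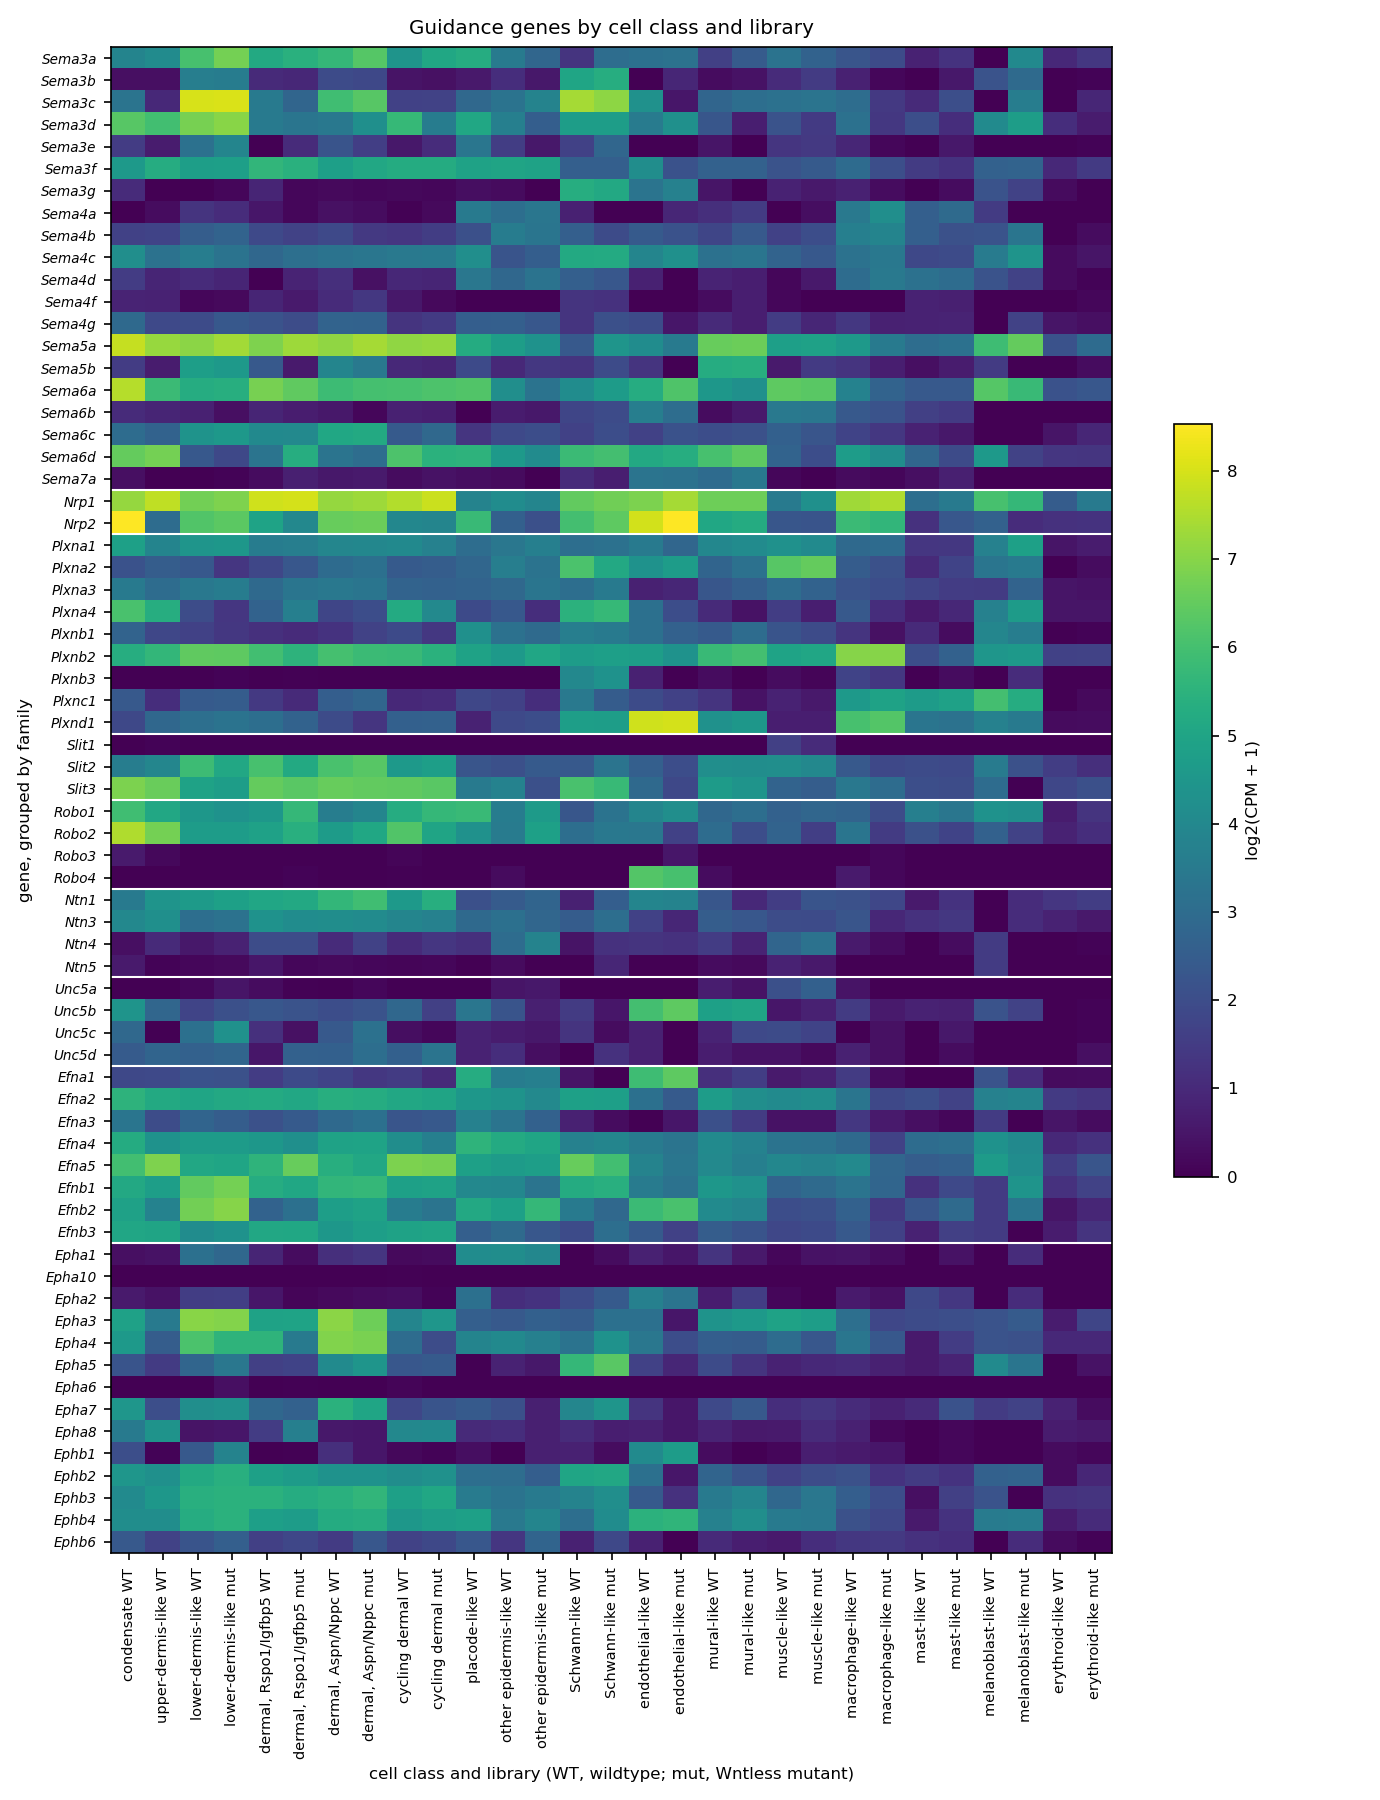
Level of each of the 68 guidance genes, as log2(CPM + 1), in each cell class (columns, by library) with genes grouped by family (rows). Nrp2 is brightest in the wildtype condensate (368 CPM) and in endothelial-like cells of both libraries (247 and 371 CPM), and Sema3c in lower-dermis-like and Schwann-like cells.

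Among the guidance genes, Nrp2 had the highest ratio between the condensate and the rest of the wildtype dermis. Nrp2 (ENSMUSG00000025969, GRCm38 chromosome 1, 62703285 to 62818695, plus strand), the neuropilin that prefers Sema3f and Sema3c, was at 368 CPM in the condensate and 31.1 CPM in the other dermal cells, a log2 ratio of 3.56 (3.46 to 3.67). The next class of the wildtype library was endothelial-like, at 247 CPM. With the condensate defined by 2 of the 8 markers the log2 ratio of Nrp2 was 2.02. Of the 54 guidance genes measured here (50 or more UMIs over both groups), 20 were at least 1.5-fold higher in the condensate and 14 lower. Among all measured genes 13.7% were higher and 17.6% lower by that rule. The looser definition of the condensate gave 12 higher genes, with no share of all genes given for it.

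Among membrane semaphorins, Sema6a stood at 189 CPM in the condensate and 61.6 CPM in the other dermal cells, Sema5a at 218 and 138 CPM, and Sema6d at 91.3 and 58.2 CPM. Several secreted semaphorins went the other way, and so did the membrane semaphorins Sema5b and Sema6c, given below. Sema3c was at 8.71 CPM in the condensate and 46.1 CPM elsewhere, a log2 ratio of -2.40 (-2.94 to -1.91), and Sema3a, the ligand of Nrp1 and the A-type plexins, at 13.5 and 30.3 CPM. Sema3f was at 23.2 and 35.6 CPM. Sema3d was not among the lower genes, at 78.6 and 54.3 CPM, a ratio under 1.5-fold. The condensate level of Sema3c was under 5% of that in the lower dermis and so possibly free RNA.

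Receptors higher in the condensate, besides Nrp2, included Robos, plexins, Unc5 and Eph receptors. Robo2, a Slit receptor, was at 181 CPM in the condensate and 66.8 CPM in the other dermal cells, and Robo1 at 60.2 and 30.2 CPM. Plxna4 was at 66.5 and 25.9 CPM. Unc5b was at 20.3 and 5.18 CPM, and Unc5c at 6.33 and 1.81 CPM. Ligands of Robo and Unc5 were split. Slit3 had its highest class level in the condensate, 113 CPM against 81.8 CPM in the other dermal cells, under 1.5-fold, whereas Slit2 was at 11.3 CPM against 34.2 CPM elsewhere and Ntn1 at 10.6 against 26.2 CPM. Smaller ratios, from 0.84 to 1.35 on the log2 scale, made up most of the other higher genes: Sema4c, Sema4d, Sema4g, Plxna1, Plxnb1, Plxnc1, Efna3, Efna4, Epha7 and Ephb6. Ephb1 was at 3.17 and 0.863 CPM. Sema5b and Plxnd1 were lower, at 1.85 and 6.26 CPM and at 2.64 and 5.72 CPM. The condensate levels of Sema5b and Plxnd1 were under 5% of their highest class level and so possibly free RNA. Ephb3, Sema6c, Epha3 and Plxnb2 were lower too, with log2 ratios from -0.96 to -0.61. Genes called lower on 1 condensate UMI (Sema3b, Epha1 and Ntn4) carry intervals that reach from a large deficit to near or past 0.

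Nrp2 was also the guidance gene with the highest ratio in the placode. In the wildtype epidermis Nrp2 was at 53.8 CPM in the placode-like cluster and 5.21 CPM in the other epidermis-like cells, a log2 ratio of 3.37 (2.79 to 4.004). Robo1 was at 54.6 and 10.997 CPM, Sema6a at 72.7 and 17.6 CPM, Sema4c at 17.7 and 3.67 CPM, and the ephrin Efna1 at 38.1 and 10.997 CPM. Secreted Sema3a and Sema3d were also higher there, at 37.6 against 10.4 CPM and 33.3 against 11.8 CPM. The EphB receptor Ephb4 was at 27.8 and 9.84 CPM. Unc5b, Plxnb1, Sema6d, Robo2 and Sema4d were higher with log2 ratios from 0.60 to 1.31. Sema4b was lower, at 3.28 against 10.997 CPM, and so was Plxna2, at 6.06 against 11.6 CPM. Of 36 measured guidance genes 13 were at least 1.5-fold higher in the placode-like cluster and 2 lower, where all measured genes gave 14.45% and 10.5%.

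Both comparisons measured 35 guidance genes. The 13 higher in the condensate and the 13 higher in the placode shared 9, which is 69.2% of each list: Nrp2, Plxnb1, Robo1, Robo2, Sema4c, Sema4d, Sema6a, Sema6d and Unc5b. Among all 8757 genes measured in both comparisons, 328 were higher in both, 39.4% of the genes higher in the condensate and 27.2% of those higher in the placode. Genes higher in the condensate made up 37.1% of the 35 guidance genes and 9.5% of all 8757 genes. The shared percentages thus start from unlike bases. Sema3a was the 1 guidance gene lower in the condensate and higher in the placode. The 2 comparisons used different cells of the same library.

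**Figure D2:**
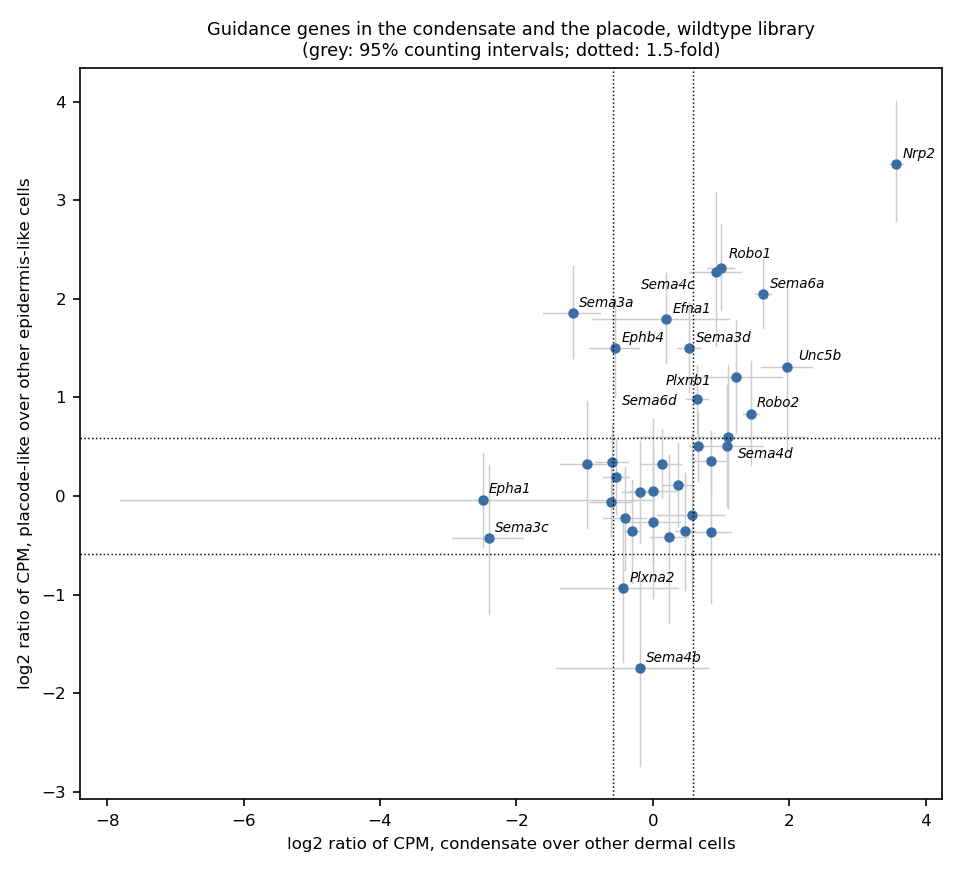
Log2 ratio of CPM in condensate over other dermal cells (horizontal) and in placode-like over other epidermis-like cells (vertical) for the 35 guidance genes measured in both, wildtype library, with 95% counting intervals in grey and 1.5-fold as dotted lines. Nrp2 lies farthest to the upper right (3.56 and 3.37), Sema3a alone at the upper left, and Sema3c at -2.40 on the horizontal axis.

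The upper and lower dermis of the wildtype library carried different sets. Of 51 measured guidance genes 11 were at least 1.5-fold higher in the upper-dermis-like cluster and 26 in the lower-dermis-like clusters, against 12.1% and 19.9% of all measured genes. Robo2 was among the 10 leading genes of the upper cluster and Sema3c of a lower cluster, so these levels describe the clusters. On the upper side were Sema6d, at 107 CPM against 4.15 CPM below, Plxna4, at 38.9 against 2.97 CPM, Epha8, at 20.0 against 0.356 CPM, and Robo2, at 107 against 25.5 CPM. The ligands Efna5 and Slit3 were also higher in the upper cluster, at 117 against 33.7 CPM and 95.5 against 29.4 CPM. Unc5b, Ntn3, Efnb3 and Robo1 had log2 ratios from 0.62 to 1.34.

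Sema3c, a secreted semaphorin that binds both neuropilins, marked the lower side at 262 CPM against 0.967 CPM in the upper cluster. The same side held the Eph receptors Epha3, at 128 against 10.4 CPM, and Epha4, at 69.3 against 4.76 CPM, and the ephrins Efnb2, at 104 against 12.8 CPM, and Efnb1, at 89.6 against 26.5 CPM. Sema5b was at 26.8 against 0.552 CPM and Sema3b at 11.6 against 0.276 CPM. Unc5c had 67 UMIs below and none above, which makes it at least 38.4-fold lower in the upper cluster when 3 counts are set for the group without a UMI. Slit2 and Sema3a were at 56.6 against 13.9 CPM and at 65.4 against 16.3 CPM. Further lower-side genes were Epha1, Sema3e, Epha7, Plxnc1, Sema6c, Epha5, Ephb4, Sema4b, Efna3, Ephb2, Ephb3, Sema3d, Plxnb2, Ephb6 and Plxna1, with log2 ratios from -4.50 to -0.60. The neuropilins differed in opposite directions, with Nrp2 at 73.7 CPM in the lower and 7.18 CPM in the upper group and Nrp1 at 104 and 209 CPM. Neither level was the highest of the dermal groups, since Nrp2 was at 92.2 CPM in cluster 4 and Nrp1 at 239 CPM in cluster 0.

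The promoters of 4 genes of the dermal results are printed: Nrp2, higher in the condensate, Sema6d, lower in the mutant dermis as a whole, and Sema3a and Sema3c, higher there. With the 6 dermal clusters that both libraries share weighted alike, the log2 ratios were -0.32 for Sema6d, 0.66 for Sema3a and 0.07 for Sema3c. Each is the RefSeq window of GRCm38.p6 from 250 bases before to 50 bases after an annotated start, on the plus strand, 5′ to 3′. Capitals mark a form of the core letters bound by the Lef and Tcf factors of Wnt signalling, CTTTGA or its reverse complement TCAAAG. Other forms of the core were not searched for and are not marked. The windows are chr1:62703067-62703366 for Nrp2, chr2:124089719-124090018 for Sema6d, chr5:13396534-13396833 for Sema3a and chr5:17574566-17574865 for Sema3c. The Sema3a gene begins upstream of its window, at chr5:13125414 on the plus strand, so the window lies inside the gene. The upstream start of Sema3a was not examined.
Nrp2: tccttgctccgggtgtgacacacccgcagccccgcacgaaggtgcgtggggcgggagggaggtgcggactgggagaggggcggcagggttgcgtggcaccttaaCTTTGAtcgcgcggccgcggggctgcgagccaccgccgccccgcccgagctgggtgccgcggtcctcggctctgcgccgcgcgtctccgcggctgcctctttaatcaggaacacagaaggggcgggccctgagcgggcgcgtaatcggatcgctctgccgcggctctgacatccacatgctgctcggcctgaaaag
Sema6d: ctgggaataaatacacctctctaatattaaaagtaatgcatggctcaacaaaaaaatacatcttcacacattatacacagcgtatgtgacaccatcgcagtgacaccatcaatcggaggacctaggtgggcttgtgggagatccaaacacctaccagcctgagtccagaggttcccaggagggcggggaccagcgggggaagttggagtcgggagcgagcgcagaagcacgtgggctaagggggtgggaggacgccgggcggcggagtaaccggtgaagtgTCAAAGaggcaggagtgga
Sema3a: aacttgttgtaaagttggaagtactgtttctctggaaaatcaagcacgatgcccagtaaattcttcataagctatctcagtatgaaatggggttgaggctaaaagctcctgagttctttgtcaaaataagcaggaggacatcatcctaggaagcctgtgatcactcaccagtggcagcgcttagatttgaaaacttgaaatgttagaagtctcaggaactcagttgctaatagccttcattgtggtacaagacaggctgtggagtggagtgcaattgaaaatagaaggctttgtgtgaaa
Sema3c: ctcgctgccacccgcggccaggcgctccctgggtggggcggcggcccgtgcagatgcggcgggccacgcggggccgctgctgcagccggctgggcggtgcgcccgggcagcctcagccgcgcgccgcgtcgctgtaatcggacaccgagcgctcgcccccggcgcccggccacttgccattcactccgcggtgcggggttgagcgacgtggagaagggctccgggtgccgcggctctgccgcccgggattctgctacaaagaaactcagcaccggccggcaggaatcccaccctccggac

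The Nrp2 and Sema6d windows each held the letters once, Nrp2 on the plus and Sema6d on the minus strand, and those of Sema3a and Sema3c held 0. A second listed Sema6d start had no match either. The 4 genes printed do not stand for the rest: of the 7 genes higher in the mutant dermis 1 held the letters, Sema3e (14.3%), and of the 5 lower ones with a window 1 did, Sema6d (20.0%), with no match for Robo2, Unc5b, Plxnb1 and Sema6b. Over all 32851 windows, 16.0% held the letters, and of the 59 guidance genes with a window 5 did (8.47%). A match is a run of letters and not a bound site, and a window without one says nothing of the factors. Windows without these letters may hold other forms of the core, so the 4 windows are not contrasted.

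The whole mutant dermis had 57 measured guidance genes, of which 7 were at least 1.5-fold higher than in the wildtype dermis (8.58% of all measured genes were) and 6 lower (4.47% of all genes). The other 44 lay between, and 11 had fewer than 50 UMIs: Epha6, Epha10, Ntn5, Plxnb3, Robo3, Robo4, Sema3g, Sema4a, Sema7a, Slit1 and Unc5a. The median log2 ratio of the 57 was 0.09, and of all measured genes 0.03. The 17 measured semaphorins gave 4 of the higher and 2 of the lower genes, the 8 plexins 2 lower, and the 12 Eph receptors 1 higher. Ephrins (8 measured, log2 ratios from -0.21 to 0.50), neuropilins and Slits had no member past 1.5-fold, with Nrp1 at 178 and 205 CPM in the wildtype and mutant dermis and Nrp2 at 51.4 and 39.4 CPM.

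Lower in the mutant dermis were 2 plexins, 1 Robo, 2 semaphorins and 1 Unc5 receptor. Plxna4 was at 28.4 CPM in the wildtype and 9.40 CPM in the mutant dermis, a log2 ratio of -1.59 (-1.72 to -1.47). Robo2 (ENSMUSG00000052516, GRCm38 chromosome 16, 73891839 to 74411825, minus strand) was at 73.7 and 33.6 CPM, a log2 ratio of -1.13 (-1.20 to -1.06). Sema6d was at 60.2 and 28.1 CPM, and Unc5b at 6.09 and 3.08 CPM. Plxnb1 and Sema6b were low in both libraries, at 2.56 and 1.47 CPM and at 0.763 and 0.480 CPM. Sema6b changed sign when cells were thinned to 1 depth.

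Plxna4, Robo2, Sema6d and Unc5b were each higher in the wildtype condensate and in the upper-dermis-like cluster, which the mutant library nearly lacked. Without condensate cells and cluster 3 the log2 ratios were -1.21 for Plxna4, -0.68 for Robo2, -0.59 for Sema6d and -0.67 for Unc5b. With the 6 clusters that both libraries share weighted alike they were -0.92, -0.52, -0.32 and -0.43. Under that weighting 2 guidance genes in place of 6 were past 1.5-fold lower, Plxna4 and Sema6b. The share of all genes is not given for it. The share of dermal cells with a Robo2 UMI, after thinning to 9000 UMIs per cell, was 40.1% in the wildtype (4000 cells, 1300 shallower cells left out) and 23.3% in the mutant library (4661 cells, 367 left out). Before thinning it was 44.5% and 34.5%. In macrophage-like cells thinned alike, the share was 4.03% and 0.901%. Median depths were 11154 and 15566 UMIs in the dermis and 16234 and 24632 UMIs in the macrophage-like cells.

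Higher in the mutant dermis were 4 semaphorins, Unc5c, Ntn4 and Ephb1. Sema3a was at 29.3 CPM in the wildtype and 57.9 CPM in the mutant dermis, a log2 ratio of 0.98 (0.90 to 1.06). Sema3c was at 43.8 and 71.1 CPM, Sema6c at 10.9 and 16.9 CPM, and Sema3e, a ligand that binds Plxnd1 directly, at 1.89 and 4.05 CPM. The receptors Unc5c and Ephb1 were at 2.08 and 5.35 CPM and at 1.002 and 3.02 CPM, and Ntn4, a netrin of basement membranes, at 1.07 and 1.9956 CPM. With shared clusters weighted alike Sema3a remained at 0.66, Unc5c at 0.89 and Ephb1 at 1.47, whereas Sema3c was at 0.07 and Sema6c at 0.11. The summed collagen transcripts Col1a1, Col1a2 and Col3a1, highest in the lower-dermis-like clusters, were 1.13% of wildtype and 1.64% of mutant dermal UMIs. Their part in these ratios was not tested.

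**Figure D3:**
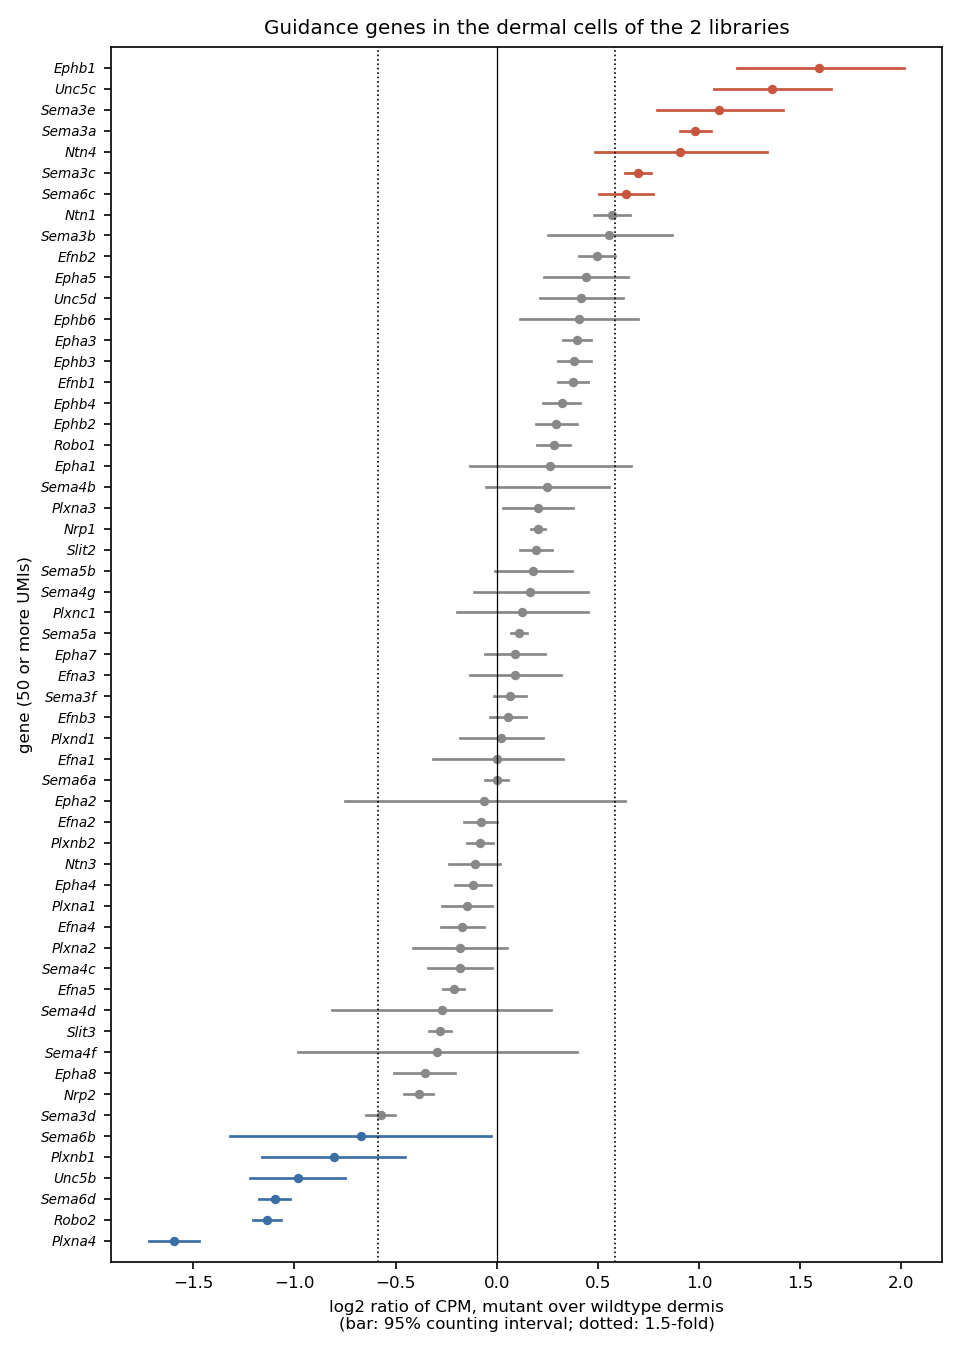
Log2 ratio of CPM in mutant over wildtype dermis for the 57 measured guidance genes, with 95% counting intervals as bars and 1.5-fold as dotted lines; red points are higher, blue points lower by at least 1.5-fold. Plxna4, Robo2 and Sema6d form the lower end (-1.59, -1.13 and -1.10), and Ephb1 and Unc5c the upper end (1.59 and 1.36).

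Within the lower-dermis-like clusters, 749 wildtype and 1102 mutant cells, the summed collagen share was the same at 1.82% in both libraries. Of 51 measured guidance genes 5 were higher (4.66% of all genes) and 4 lower (2.18%). Sema3a was at 65.4 and 106 CPM in the wildtype and mutant library, a log2 ratio of 0.70 (0.56 to 0.84). Unc5c was at 7.95 and 18.8 CPM, Ephb1 at 4.27 and 13.1 CPM, Sema3e at 8.07 and 13.8 CPM, and Epha5 at 5.82 and 9.56 CPM. Sema3c, the highest guidance gene of these cells, was at 262 CPM in both. On the lower side, Slit2 was at 56.6 and 33.5 CPM and Plxna2 at 4.15 and 1.54 CPM. In cells thinned to 1 depth 0 of the 4 were called, with Slit2 at a log2 ratio of -0.53. With a minimum of 100 UMIs, or without the highest 8% of Scrublet scores, Slit2 alone was called. Plxna2 stayed past 1.5-fold over the 7 settings, with log2 ratios from -1.73 to -1.33. It lost its call where its UMIs fell under the minimum, as with 28 and 19 UMIs without those scores. Plxna4 and Sema6d were also called lower, but from 2.97 and 4.15 CPM, under 5% of their highest wildtype level and so possibly free RNA.

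Cluster 0, led by Rspo1 and Igfbp5, gave 417 wildtype and 2167 mutant cells of the dermal lists. There 7 of 45 measured guidance genes were higher (8.47% of all genes) and 4 lower (5.56%). Most of the higher ones were genes of the wildtype upper dermis. Sema6d was at 8.79 CPM in the wildtype and 39.3 CPM in the mutant cells of the cluster, Efna5 at 46.0 and 91.9 CPM, Epha8 at 1.88 and 11.9 CPM, and Plxna4 at 5.44 and 11.99 CPM. Robo1 was at 21.8 and 50.03 CPM, Unc5d at 0.419 and 5.28 CPM (2 wildtype UMIs), and Plxna2 at 2.51 and 3.95 CPM. Wildtype Plxna2 in this cluster was under 5% of its muscle-like level and so possibly free RNA. Lower were Epha4, at 45.8 and 10.1 CPM, Nrp2, at 30.1 and 14.8 CPM, Slit2, at 65.5 and 35.3 CPM, and Sema3c, at 10.3 and 5.95 CPM and so under 5% of its lower-dermis level, possibly free RNA. Sema6d and Plxna4 thus stood higher in the mutant library within this cluster and lower in the dermis as a whole. The mutant levels in the cluster stayed below those of the wildtype upper cluster, 107 CPM for Sema6d and 38.9 CPM for Plxna4.

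Cycling dermal cells (clusters 1 and 6, led by histone and mitotic genes, 1660 and 1024 cells) had Plxna4, Robo2, Sema6d, Unc5b and Plxnb1 lower, as the whole dermis did. Of 46 measured guidance genes 4 were higher (5.3% of all genes) and 8 lower (4.48%). Sema3d was at 51.5 and 11.1 CPM, a log2 ratio of -2.21 (-2.42 to -2.005), against 55.7 and 37.4 CPM in the whole dermis. Robo2 was at 73.6 and 30.4 CPM, Plxna4 at 36.1 and 15.3 CPM, Sema6d at 69.8 and 42.9 CPM, Unc5b at 6.27 and 2.04 CPM and Epha4 at 7.06 and 2.98 CPM. Efna1 and Plxnb1 were lower from under 3 CPM, and wildtype Efna1 was under 5% of its endothelial-like level and so possibly free RNA. Sema3a was higher, at 20.3 and 33.0 CPM, and so were Ntn1, at 23.4 and 39.8 CPM, Epha3, at 13.9 and 21.6 CPM, and Unc5d, at 5.11 and 8.84 CPM. These clusters mix dermal layers, and their collagen share was 0.980% in the wildtype and 1.46% in the mutant library; the part of layer make-up was not tested.

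Cluster 4, led by Aspn and Nppc and with Epha4 among its leading genes (121 and 112 CPM), gave 651 wildtype and 669 mutant cells of the dermal lists, condensate cells left out. Of 42 measured guidance genes 4 were higher (4.64% of all genes) and 0 lower (3.61%). Sema3a was at 50.1 and 76.6 CPM, Unc5c at 4.25 and 8.05 CPM, Sema3d at 9.72 and 18.001 CPM and Ephb6 at 1.82 and 4.02 CPM. Sema3a was thus at least 1.5-fold higher in the lower-dermis-like clusters, in cluster 4 and in cycling cells, and at 35.4 and 41.9 CPM in cluster 0.

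**Figure D4:**
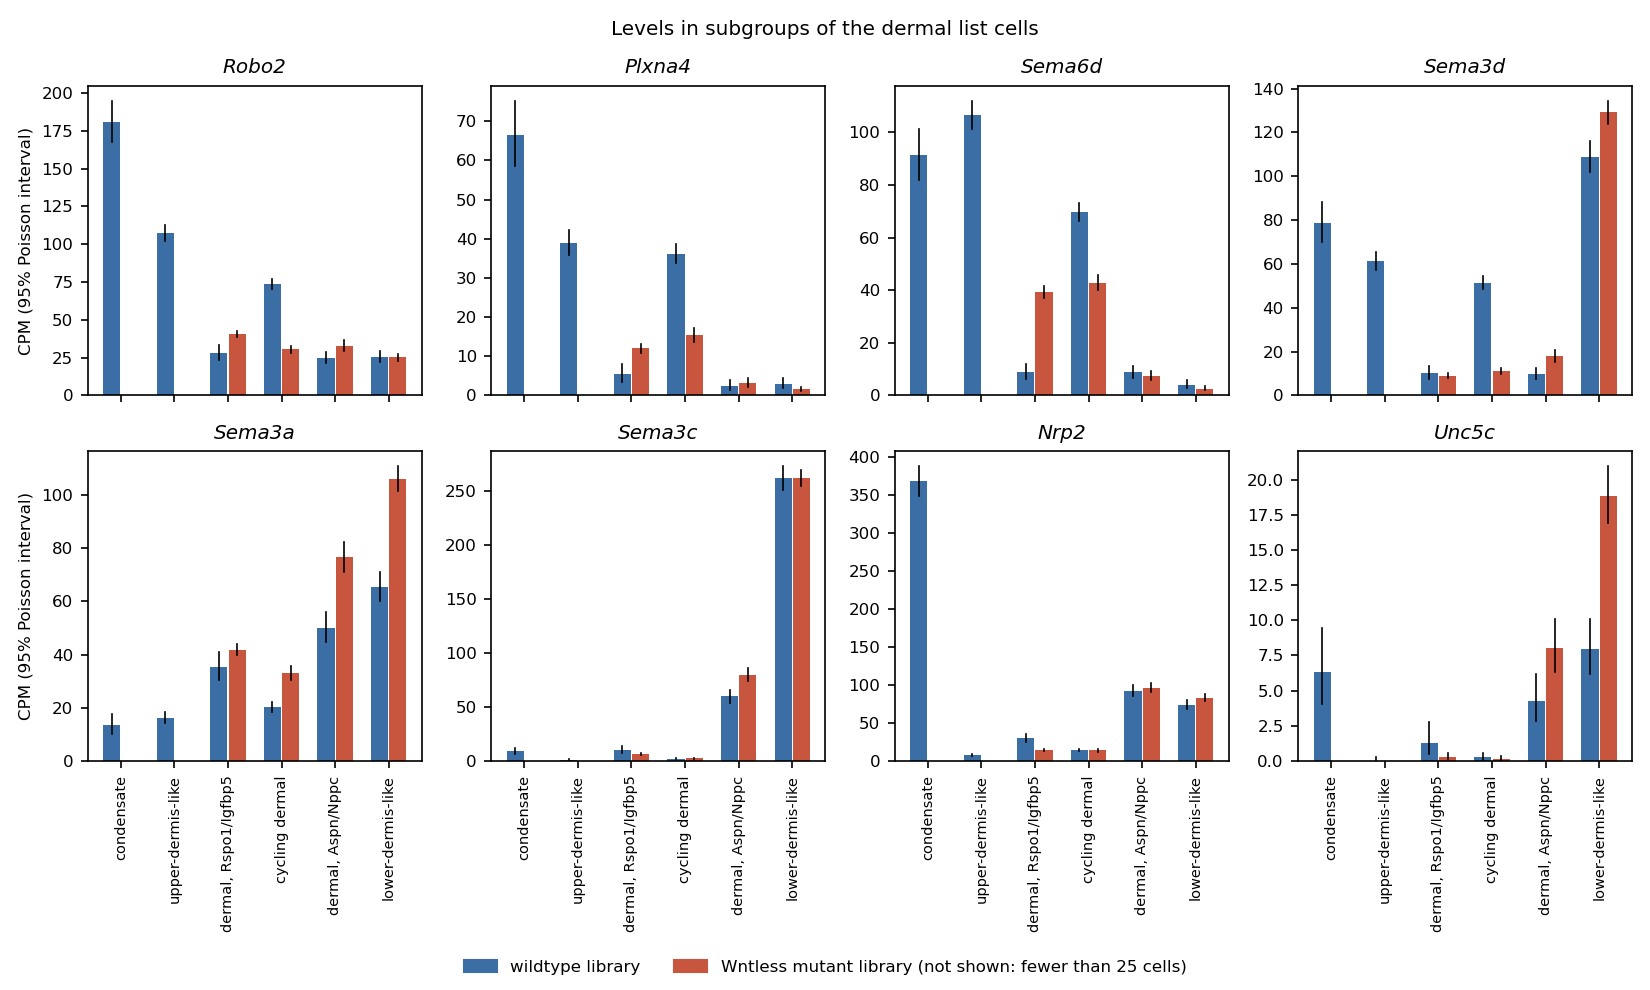
CPM of 8 guidance genes in 6 groups of dermal list cells (bars; blue, wildtype; red, mutant; lines, 95% Poisson intervals), with no mutant bar where that library had fewer than 25 cells. Robo2, Plxna4 and Sema6d are tall in the wildtype condensate, upper and cycling groups, while Sema3a is higher in the mutant library in each of the 4 groups with both bars.

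In the epidermis, the layer in which Wls was deleted, 15 of 41 measured guidance genes were at least 1.5-fold lower in the mutant (12.9% of all genes) and 5 higher (5.96%), over 557 wildtype and 173 mutant cells. The placode-like cluster was wholly wildtype, and the levels above show several of the lower genes to be placode genes. Nrp2 was at 26.3 CPM in the wildtype and 3.24 CPM in the mutant epidermis, Sema6a at 41.5 and 8.57 CPM, Sema3d at 21.1 and 4.86 CPM, Sema3a at 22.2 and 6.02 CPM and Unc5b at 6.02 and 0.695 CPM (3 mutant UMIs). The genes Efna1, Efna3, Plxnb1, Sema4c, Sema6d and Sema5a were lower with log2 ratios between -1.001 and -0.68, and Efnb1, Ephb2 and Efnb3 between -0.74 and -0.61. Slit3 was at 11.7 and 3.24 CPM. The 5 higher genes were Ntn4, Robo2, Sema3c, Efnb2 and Plxna3, with log2 ratios from 0.59 to 1.52.

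The comparison was repeated in cluster 14 alone, the epidermis-like cluster with cells of both libraries (282 and 173), a choice made after seeing the data. There 8 of 34 measured guidance genes were lower (8.79% of all genes) and 5 higher (5.75%). Slit3 was at 12.9 and 3.24 CPM, a log2 ratio of -1.995 (-2.94 to -1.15). Sema3d was at 11.8 and 4.86 CPM, Sema6a at 17.6 and 8.57 CPM, and Sema3a at 10.4 and 6.02 CPM. Nrp2 had 27 and 14 UMIs, too few to be measured. Efnb1, Efnb3, Efna3 and Ephb2 made up the lower genes, with log2 ratios from -0.78 to -0.59. Efna1 and Sema4c changed sign, at log2 ratios of 0.10 and 0.41.

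Among the higher genes, Robo2 was at 10.6 and 27.6 CPM in cluster 14, a log2 ratio of 1.38 (0.90 to 1.87), and Robo1 at 10.997 and 24.3 CPM. In the dermis Robo2 was lower in the mutant library; the difference between the ratios was not tested. Efnb2, a ligand of the EphB receptors, was at 27.8 and 51.0 CPM, the highest guidance gene of the mutant epidermis. Ntn4 was at 7.14 and 13.2 CPM. Sema3c was called higher from 8.49 CPM, under 5% of its lower-dermis level and so possibly free RNA. In cluster 14 the collagen share was 0.184% in the wildtype and 0.0984% in the mutant library. Slit3, Sema3d, Sema3a and Sema6a are all dermal genes too, and the part of free dermal RNA in their lower mutant levels was not tested.

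Schwann-like cells (274 and 308) had Sema3c, Efna5, Nrp1, Plxna2 and Slit3 as their highest guidance genes in the wildtype library, at 165, 92.9, 89.7, 68.1 and 67.0 CPM. Sema3c was at 134 CPM in the mutant library, and Plxna4, at 43.6 and 52.2 CPM, lay between the 1.5-fold bounds. Of 33 measured guidance genes 6 were higher (5.94% of all genes) and 3 lower (2.4%). Epha5, an EphA receptor most abundant in this class, was at 49.997 and 80.3 CPM, Epha4 at 8.51 and 19.4 CPM and Ephb4 at 7.45 and 16.6 CPM. Sema5a was at 4.26 and 21.0 CPM, Robo1 at 3.90 and 8.51 CPM and Slit2 at 4.26 and 8.73 CPM. Plxna2, at 68.1 and 34.9 CPM, Efna5, at 92.9 and 61.1 CPM, and Efnb2, at 10.3 and 6.33 CPM, were lower. Wildtype Sema5a was under 5% of its condensate level and possibly free RNA. The collagen share of these cells was 0.219% and 0.394%, and without barcodes over 1% collagen UMIs the higher genes numbered 3; the part of dermal RNA was not tested.

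Endothelial-like cells (84 and 109) were led by Nrp2, Plxnd1, the receptor of Sema3e on vessels, Nrp1, Robo4 and Unc5b. The class joins clusters 21 and 26. Cluster 26 had the lymphatic markers Flt4, Prox1 and Mmrn1 among its leading genes and held 17 wildtype and 32 mutant cells. Over the class Flt4 was at 79.4 and 119 CPM in the wildtype and mutant library. The part of this cell mix in the ratios below was not tested. Nrp2 was at 247 and 371 CPM in the wildtype and mutant library, a log2 ratio of 0.59 (0.40 to 0.77). Plxnd1 was at 240 and 255 CPM, Nrp1 at 116 and 165 CPM, Robo4 at 75.1 and 64.7 CPM and Unc5b at 62.8 and 83.9 CPM. Of 16 measured genes 4 were higher (8.2% of all genes) and 0 lower (4.89%). The others were Sema6a, at 38.3 and 72.1 CPM, Ephb1, at 15.9 and 25.2 CPM, and Sema3d, at 10.8 and 18.7 CPM. Nrp2 sits at the 1.5-fold bound, and with the highest 8% of Scrublet scores left out 1 measured gene was past it, Sema6a. In that setting Nrp2 was at a log2 ratio of 0.57. Sema3d, at 1.58, and Ephb1, at 0.54, had 36 and 49 UMIs over both libraries, too few to be measured. Collagen was 0.241% of wildtype and 0.0603% of mutant UMIs in this class, and Pecam1, its defining marker, was at 282 and 375 CPM; the part of dermal RNA in the ratios was not tested.

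In the other classes the calls rested on few UMIs. Mural-like cells had 1 of 31 measured genes higher (4.77% of all genes) and 2 lower (2.22%), with Sema6d at 64.7 and 84.0 CPM and Sema5b, highest in this class, at 37.9 and 40.0 CPM. Plxnb1 was higher, at 4.30 and 7.07 CPM, and Robo2, at 7.16 and 3.05 CPM, and Ephb2, at 5.73 and 3.69 CPM, lower. In muscle-like cells 4 of 38 were higher (2.49%) and 5 lower (3.45%). Their leading genes Sema6a and Plxna2 were at 84.9 and 80.1 CPM and at 78.2 and 90.03 CPM. The higher genes were Nrp1, Ntn1, Unc5a and Ephb3, and the lower ones Robo2, Sema3d, Sema6d, Epha4 and Sema3a, none of them above 18.6 CPM in either library. Wildtype Nrp1, Ntn1, Robo2 and Sema3d in muscle-like and Robo2 in mural-like cells were under 5% of their highest class level and possibly free RNA. Mast-like cells had 2 of 12 higher (4.92%), Plxnb2 and Efnb2, and 0 lower (1.85%). Wildtype Plxnb2 and Efnb2 in mast-like cells were under 5% of their highest class level and possibly free RNA. Plxnc1, the receptor of Sema7a, led the mast-like cells at 25.03 and 28.8 CPM. In melanoblast-like cells (37 and 47) only 4 guidance genes were measured, 1 higher (6.36% of all genes) and 1 lower (6.27%). Sema5a was at 58.7 and 90.7 CPM, a log2 ratio of 0.63 (0.03 to 1.26), and Plxnc1 at 62.3 and 38.1 CPM, a log2 ratio of -0.71 (-1.43 to 0.01). Sema6a was at 76.5 and 53.7 CPM and Nrp1 at 65.8 and 50.4 CPM, both under 1.5-fold.

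Macrophage-like cells (309 and 365) stood out by 13 of 28 measured guidance genes lower in the mutant (8.01% of all genes) and 1 higher (2.6%). Their own receptors were nearly level: Nrp1 was at 160 and 181 CPM, Plxnb2 at 125 and 125 CPM, and Plxnd1 at 66.2 and 74.9 CPM. Nrp2 was at 55.3 and 47.7 CPM. The lower genes were Efna2, Efna4, Efna5, Epha3, Epha4, Ephb3, Robo1, Robo2, Sema3c, Sema3d, Sema3f, Sema5a and Sema6a, all of which had higher levels in dermal cells. Among them were Sema3d, at 8.18 and 1.58 CPM, Robo2, at 9.07 and 1.80 CPM, and Sema3c, at 7.29 and 1.69 CPM, with Sema5a, at 23.3 and 10.3 CPM, the most abundant. Collagen was 0.185% of wildtype and 0.110% of mutant macrophage-like UMIs, and the keratin Krt14 was at 42.7 and 0.106 CPM. With the highest 8% of Scrublet scores left out, 241 and 306 cells remained, and each of the 13 genes had only 2 to 23 UMIs over both libraries, too few to be measured. Sema5a went from 131 and 98 UMIs to 3 and 9, and Robo2 from 51 and 17 UMIs to 2 and 1. The ratio of those few UMIs was negative for 7 genes and positive for 3, and Epha3, Robo1 and Sema3d had 0 wildtype UMIs. Sema4a, an immune semaphorin, was the higher gene, at 9.96 and 17.5 CPM.

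Partner genes of the pathways were listed beside the families: 34 co-receptors and intracellular partners and 7 VEGF ligands and receptors. In the dermis 32 of the 34 were measured, with 1 higher and 5 lower in the mutant (8.58% and 4.47% of all genes). Dcc, the netrin receptor, was at 5.34 and 1.86 CPM, Crmp1, a semaphorin mediator, at 3.67 and 1.18 CPM, L1cam, a partner of Nrp1, at 1.08 and 0.370 CPM, Dpysl5 at 4.87 and 2.73 CPM and Mical2 at 0.795 and 0.517 CPM. Srgap3, a GTPase-activating protein downstream of Robo, was the higher one, at 18.1 and 28.9 CPM. In the lower-dermis-like clusters 26 were measured, 0 higher and 0 lower (4.66% and 2.18% of all genes). In cycling cells 29 were measured, 1 higher and 4 lower (5.3% and 4.48%). Cluster 0 had 2 higher and 2 lower of 28 (8.47% and 5.56%), and cluster 4 had 2 and 0 of 26 (4.64% and 3.61%). Over the whole epidermis 24 were measured, 2 higher and 8 lower (5.96% and 12.9% of all genes), among them Srgap1, at 29.6 and 4.86 CPM, and Dpysl3, at 22.8 and 6.49 CPM. Rgma, a ligand of neogenin, was higher over the whole epidermis, at 25.3 and 48.9 CPM. That class holds the placode-like cells, which the mutant library lacked. In cluster 14 alone 22 partners were measured, 0 higher and 4 lower (5.75% and 8.79% of all genes). Of the VEGF list 6 were measured in the dermis, 0 higher and 1 lower, Flt1, at 1.56 and 0.961 CPM. In Schwann-like cells 26 partners were measured, 4 higher and 1 lower (5.94% and 2.4% of all genes), with Flrt1, of the Unc5-binding FLRT family, at 9.22 and 23.1 CPM. In endothelial-like cells 14 were measured, 3 higher and 1 lower (8.2% and 4.89% of all genes), with Flrt2 at 42.6 and 65.6 CPM and Flrt3 at 27.4 and 16.1 CPM, and the VEGF ligand Vegfc was at 12.3 and 28.2 CPM.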

How the data were processed

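The deposited matrices hold UMI counts per gene and barcode, whole numbers and not normalized, written by Cell Ranger 6.1.2 per the file headers; the submitters' processing notes name mm10 and Seurat. A list of dermal barcodes per library was deposited too, and how the authors chose the cells is not given in the sources used here. The deposited barcode and feature files hold names only.

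All barcodes were clustered together in scanpy 1.11.5 (10000 UMIs per cell, logged, 2000 variable genes less the 7 guidance genes among them, 30 principal components, 15 neighbours, Leiden resolution 0.5 with leidenalg 0.10.2), without batch correction, giving 28 clusters. A cluster was named where at least 3 markers of 1 list were among its 50 top genes; others stayed unnamed. Scrublet called 244 wildtype barcodes (2.69%) and 1 mutant barcode (0.00957%), so it did not work in the mutant library; no barcode was removed, and leaving out the top 8% of scores was an alternative. UMIs were summed per class and library and scaled to CPM with exact Poisson intervals. Ratios are log2 with the exact conditional binomial interval. A gene was measured at 50 or more UMIs and called at 1.5-fold, and a 0 was set at 3 counts. Cells are not replicates. The ratio code was tested on simulated counts. By rule, each class was described by its measured genes past 1.5-fold and its 5 highest genes; the levels plot shows those highest genes that the text does not name. The shares of dermal and macrophage-like cells given were taken after thinning to 9000 UMIs. The guidance genes, marker and partner lists were chosen with earlier results of these data known. Gene coordinates come from GENCODE on GRCm38. Python 3.11.15, numpy 2.4.6, scipy 1.17.1 and pandas 2.3.3 were used.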

Additional observations from a re-analysis of the deposited data

How the results depend on the processing

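No paired analysis was possible because each genotype is 1 library. With 1 library each, none could be left out. Except for cluster 14, shares of all genes are not given for the alternatives, so these counts have no background beside them. In the dermis, 5 to 8 guidance genes were higher and, except for the 2 with shared clusters weighted alike, 5 to 7 lower under the alternatives; the log2 ratio of Sema6b was 0.031 in thinned cells. In the epidermis 3 were higher with a minimum of 100 UMIs and 3 without the top 8% of Scrublet scores. Epidermal genes lower numbered 9 without placode cells, where Sema4c was at 0.13, and 8 in cluster 14 alone, where Efna1 was at 0.10 and Sema4c at 0.41. The lower-dermis-like clusters had 1 gene lower with a minimum of 100 UMIs, 0 in thinned cells and 1 without the top 8% of scores. For the condensate, 2 of 8 markers gave 12 higher genes, with Plxnc1 at -0.007, and thinned cells put Epha1 at 0.35, Ephb6 at -0.40 and Ntn4 at 0.54. Without the top 8% of scores Schwann-like cells had 2 genes higher, endothelial-like 1, muscle-like 1 (Nrp1 at -1.17) and mast-like 0 (Plxnb2 at -0.76). The same setting left 0 lower in mural-like cells and 0 in macrophage-like cells, where all 13 fell to between 2 and 23 UMIs over both libraries. Of these, 7 kept a negative ratio, 3 had 0 wildtype UMIs, and Sema3c was at 0.57 (1 and 3 UMIs), Sema3f at 1.304 (1 and 5) and Sema5a at 0.57 (3 and 9). Without barcodes over 1% collagen UMIs, chosen after seeing the data, 3 were higher in Schwann-like and 2 in endothelial-like cells, and 0 lower in mural-like cells. Fewer UMIs are measured in the smaller sets; the cause of these moves was not tested otherwise. Median-of-ratios scaling moved log2 ratios by -0.03 in the dermis and 0.09 in the epidermis.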
